A study of Homo sapiens with 8 samples.

Results

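The MYC and MAX network is a family of transcription factors that compete for the same dimerization partner. It was taken here as the 10 genes whose symbols in the deposited tables are MYC, MYCN, MYCL, MAX, MXD1, MXD3, MXD4, MXI1, MNT and MGA, among 61552 genes listed in all. MDA-MB-231, a mesenchymal triple-negative human breast cancer line, was compared with MDA231-LM2 (LM2), a subline of it selected for growth as lung metastases. Each line carried a control hairpin (Ctrl-shRNA) or a short hairpin RNA against TAF7 (number 3 in the sample titles), in DMEM with fetal bovine serum, with 2 libraries in each of 4 groups. TAF7 is a subunit of TFIID, the general factor that places RNA polymerase II at promoters. A single hairpin sequence stands for the knockdown. Whether both libraries of each group came from separate cultures is not stated in the labels, and every p-value therefore measures a spread between libraries that may be technical.

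MYC, MYCN and MYCL cannot bind DNA on their own: each pairs with MAX, and the dimer binds the E-box CACGTG and recruits histone acetyltransferases and elongation factors. MXD1, MXD3, MXD4, MXI1 (also called MXD2) and MNT pair with the same MAX and bind the same sites, but bring the SIN3 and histone deacetylase corepressors. MGA also pairs with MAX, within a Polycomb complex (PRC1.6) that silences germline genes. In breast cancer MYC gain is frequent in triple-negative tumours. The ratios of MYC to MXD transcripts given below were not tested as a measure of proliferation.

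Library totals ran from 17217776 to 20292291 counts, so that 1 read was worth 0.0488 to 0.0583 CPM (the count relative to the library size, scaled with TMM factors). TAF7 itself, the check of the labels, was at 3446 and 3300 counts in the MDA-MB-231 controls, 1845 and 2160 with its hairpin, 3548 and 3527 in the LM2 controls and 2549 and 2809 with its hairpin. The hairpin libraries thus kept 58.5% of the control level in MDA-MB-231 and 74.2% in LM2 (edgeR log2 fold changes -0.77 ± 0.07 SE and -0.43 ± 0.07). The knockdown was the weaker in LM2, by 0.34 ± 0.09 on the log2 scale (edgeR interaction, adjusted p = 0.00544), or by 0.33 with an adjusted p of 0.0513 without MDA-MB-231 control replicate 3 and 0.23 with 0.0538 with library-total scaling. VIM and CD44 marked both lines as mesenchymal, at 958.5 to 2228.6 and 322.1 to 557.6 CPM as group means, and PGR, ESR1 and CDH1 had at most 1, 9 and 5 counts per group. ERBB2 stood at 55.1 to 73.1 CPM and the keratin KRT18 at 254.2 to 333.0 CPM, so these lines were not free of epithelial transcripts. The summed level of 9 genes of other cell types ranged from 7.72 to 9.77 and from 11.1 to 11.2 CPM in MDA-MB-231 without and with the knockdown, and from 26.6 to 31.7 and from 14.9 to 15.7 CPM in LM2. COL1A1 made up most of that sum in LM2 (25.3 and 14.1 CPM as group means without and with the knockdown). PECAM1, an endothelial and platelet adhesion molecule, was at 3.95, 6.68, 3.46 and 1.06 CPM in the MDA-MB-231 controls, the MDA-MB-231 knockdown, the LM2 controls and the LM2 knockdown, and with the hairpin it rose in MDA-MB-231 (log2 0.75 ± 0.20, edgeR adjusted p = 0.0037) and fell in LM2 (-1.7 ± 0.28, adjusted p = 2.89e-06). HBB was at 0 in all libraries, and PTPRC, CD3E and CD68 had 0 to 7 counts per group. Whether the genes of this list bear on the other results was not tested.

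The 300 bases around each annotated start (250 before, 50 after; RefSeq, GRCh38.p14) could be matched for 9 of the 10 members, all but MYC, in 14 windows. The E-box CACGTG, which reads the same on both strands, was found in the windows of 2 of these 9 genes, MXD4 and MNT. It was found in 12.2% of the 11191 tested genes that have a window, and in 15 of 32 genes (46.9%) of a list of MYC-activated targets described further on. Below are the sites in the members, and 1 site for each of 4 listed targets whose values are given later, each as 30 bases on the gene's strand with the E-box in capitals. APEX1 has 3 such sites in its window, of which the one farthest from the start is shown. HSPD1 and HSPE1 are transcribed away from each other and share a single site, so their lines are the same bases read on opposite strands.
MXD4: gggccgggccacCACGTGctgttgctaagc
MNT: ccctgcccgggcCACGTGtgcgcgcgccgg
HSPD1: cggccctggcgaCACGTGaaaaaatcaccc
HSPE1: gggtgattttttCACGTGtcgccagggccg
APEX1: aagcgtctccgtCACGTGgtgtcagacaga
DDX21: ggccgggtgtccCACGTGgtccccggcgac

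These lie at chr4:2262330-2262359 (minus strand, MXD4), chr17:2401236-2401265 (minus, MNT), chr2:197500345-197500374 (minus for HSPD1, plus for HSPE1), chr14:20455109-20455138 (plus, APEX1) and chr10:68956604-68956633 (plus, DDX21). The TATA motif TATAAA, searched on both strands, was in 0 of the 14 member windows, against 11.5% of all 35116 windows and 6.56% of the 16223 windows of tested genes, and the member windows held 55.0% to 76.0% G and C. These are matches of letters and say nothing about binding. The submitters' processing notes name hg19 and the deposited tables carry no coordinates, so the windows were joined by gene symbol alone.

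MYC was the most abundant and the most variable member. It was at 73.5 and 69.9 CPM in the MDA-MB-231 controls, 64.8 and 60.9 with the TAF7 hairpin, 288.0 and 288.2 in the LM2 controls, and 192.1 and 197.5 in LM2 with the TAF7 hairpin. No groups overlapped: all LM2 libraries lay far above all MDA-MB-231 libraries, and in each line the hairpin libraries lay below their controls. Between the control lines the difference was 4.02-fold (log2 2.01 ± 0.07 SE, edgeR adjusted p = 5.67e-29), and between the knockdown lines 3.1-fold (1.63 ± 0.07, adjusted p = 3.73e-25). In LM2 the knockdown libraries held 67.6% of the control level (-0.56 ± 0.07, adjusted p = 1.58e-09). In MDA-MB-231 they held 87.7% (-0.19 ± 0.07, adjusted p = 0.0484), a call that ended under 7 of 17 alternatives, among them leaving out either control library (adjusted p = 0.358 and 0.125), shTAF7 replicate 3 (0.293) or LM2 control replicate 2 (0.0559). The fall was larger in LM2 by 0.37 on the log2 scale (interaction -0.37 ± 0.10, adjusted p = 0.00343), but without MDA-MB-231 control replicate 3 this value was -0.33 with an adjusted p of 0.0718. As these are bulk samples, fewer cells expressing a gene and less RNA per cell cannot be told apart.

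The MYC paralogues contributed next to nothing. MYCN, the neural paralogue, had 0 counts in all 8 libraries, which allows at most 0.146 to 0.175 CPM per library at a limit of 3 counts that covers counting error alone. MYCL, the paralogue first found in small-cell lung cancer, was counted 17 and 9 times in the MDA-MB-231 controls, 13 and 14 with the TAF7 hairpin, 15 and 13 in the LM2 controls and 8 and 16 in LM2 with the hairpin. Its groups overlapped in depth-limited counts, and none of its differences passed the test.

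MAX, the shared partner, was at 58.4 and 56.9 CPM in the MDA-MB-231 controls, 59.8 and 58.5 with the TAF7 hairpin, 85.6 and 74.7 in the LM2 controls and 80.9 and 84.1 in LM2 with the hairpin. A difference was found between the lines and none was detected with the hairpin: LM2 was higher by 0.47 ± 0.08 on the log2 scale in the controls (edgeR adjusted p = 4.06e-07) and by 0.48 with the TAF7 hairpin (adjusted p = 3.02e-07). The knockdown moved it by 0.04 ± 0.08 in MDA-MB-231 (adjusted p = 0.791) and 0.04 ± 0.07 in LM2 (adjusted p = 0.685).

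**Figure D1:**
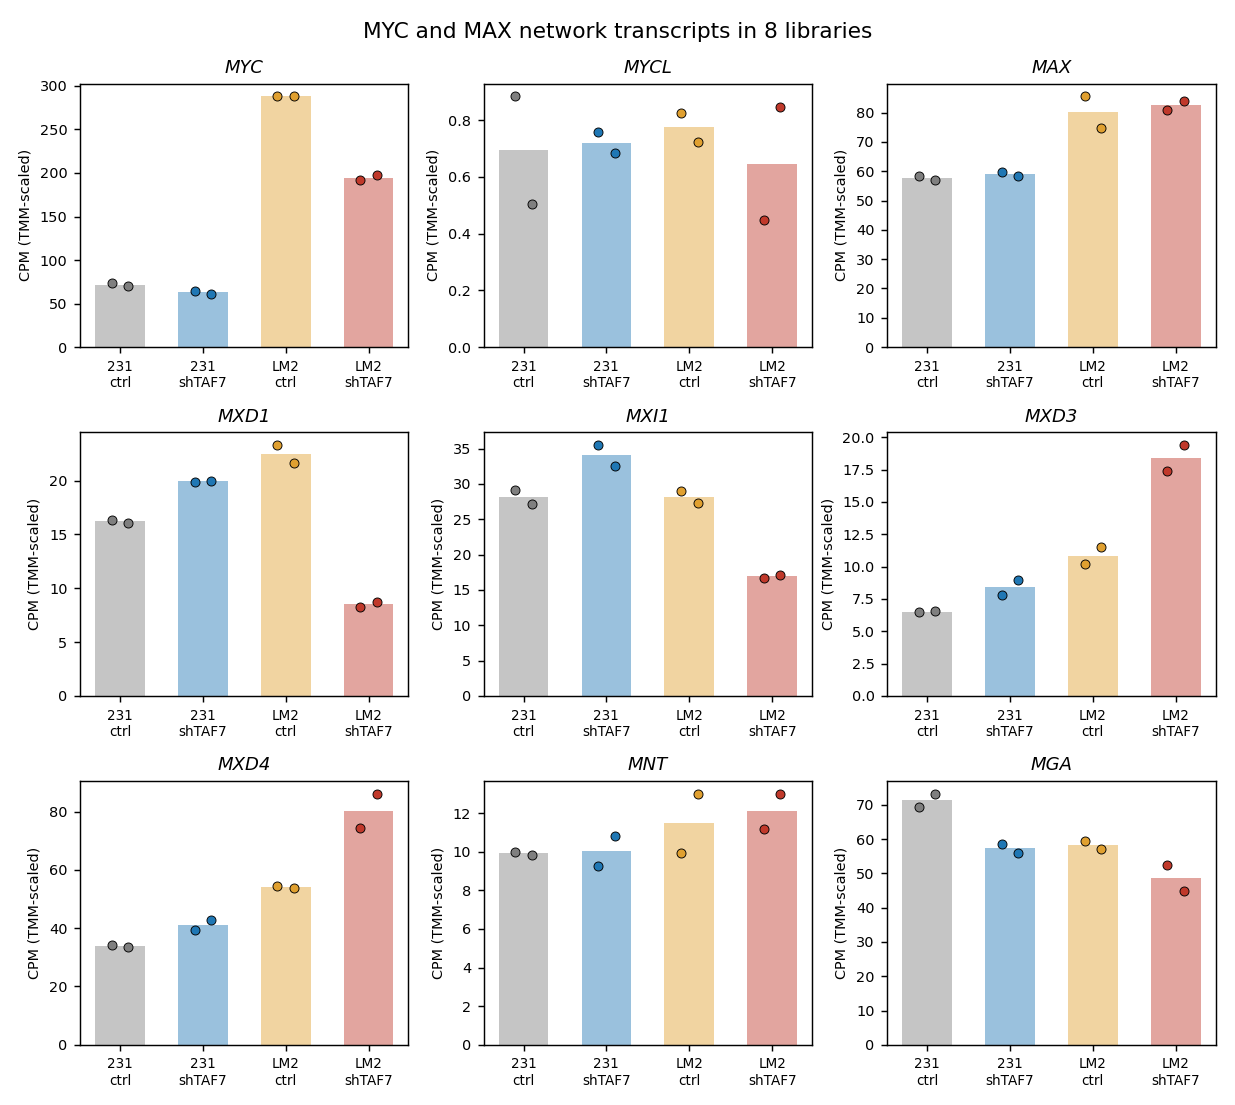
TMM-scaled CPM of the 9 detected members, each panel with its own axis from 0; points are the 2 libraries of a group and bars their mean. MYC is near 288.1 CPM in the LM2 controls against 71.7 in the MDA-MB-231 controls, and MXD1 and MXI1 are lowest in LM2 with the TAF7 hairpin.

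Of the MXD antagonists, MXD1 and MXI1 moved in opposite directions in the 2 lines. MXD1, a MAX partner induced when cells leave the cycle and differentiate, was at 16.3 and 16.1 CPM in the MDA-MB-231 controls, 19.9 and 20.0 with the TAF7 hairpin, 23.3 and 21.6 in the LM2 controls and 8.26 and 8.76 in LM2 with the hairpin. The 2 last libraries were the lowest of all 8, while in MDA-MB-231 both hairpin libraries were above both controls. In LM2 the level with the hairpin was 37.9% of the control (log2 -1.40 ± 0.12, edgeR adjusted p = 1.86e-13), the largest knockdown change in the network. In MDA-MB-231 it rose by 0.30 ± 0.11 (adjusted p = 0.0377), and the difference between the 2 effects was -1.70 ± 0.16 (interaction, adjusted p = 1.85e-11). MXI1, which like MXD1 brings SIN3 corepressors to MAX, was at 29.2 and 27.1 CPM in the MDA-MB-231 controls, 35.5 and 32.6 with the TAF7 hairpin, 29.0 and 27.3 in the LM2 controls and 16.7 and 17.1 in LM2 with the hairpin. Its control libraries overlapped between the lines (log2 difference -0.00 ± 0.09), while the knockdown libraries of LM2 lay below those of MDA-MB-231 (-1.01 ± 0.10, edgeR adjusted p = 1.36e-12). It fell to 60.1% of control in LM2 (-0.73 ± 0.10, adjusted p = 5.81e-08) and rose by 0.27 ± 0.09 in MDA-MB-231 (adjusted p = 0.0244), with an interaction of -1.01 ± 0.14 (adjusted p = 1.25e-07). The interactions of MXD1 and MXI1 and their falls in LM2 passed the test under all alternatives tried, but the rises in MDA-MB-231 did so under 8 and 10 of 17. The rise of MXD1 did not pass when any 1 of the 4 MDA-MB-231 libraries was left out (adjusted p = 0.164, 0.205, 0.0984 and 0.133) or without LM2 control replicate 3 (0.0539), and that of MXI1 without either MDA-MB-231 control (0.0721 and 0.274) or shTAF7 replicate 2 (0.192).

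MXD3 and MXD4 rose in LM2 with the hairpin, the reverse of MXD1 and MXI1. MXD3, an MXD protein known from proliferating progenitors, was at 6.5 and 6.54 CPM in the MDA-MB-231 controls, 7.81 and 8.98 with the TAF7 hairpin, 10.2 and 11.5 in the LM2 controls and 17.4 and 19.4 in LM2 with the hairpin. MXD4, like the other MXD proteins a MAX partner that brings SIN3, was at 34.4 and 33.7, 39.5 and 42.8, 54.4 and 53.8, and 74.5 and 86.1 CPM in the same order. For both genes the 4 groups did not overlap and stood in the same order, with LM2 hairpin libraries highest. In LM2 the knockdown changes were 0.77 ± 0.13 for MXD3 (edgeR adjusted p = 3.4e-06) and 0.57 ± 0.08 for MXD4 (adjusted p = 6.63e-08). In MDA-MB-231 MXD4 rose by 0.28 ± 0.09 (adjusted p = 0.0133; 0.0927, 0.13 and 0.167 without control replicate 2, control replicate 3 and shTAF7 replicate 3), while MXD3 differed by 0.37 ± 0.15 without passing the test (adjusted p = 0.0663; 0.0472 with upper quartile factors). The difference between the 2 lines in these effects missed the threshold for both genes (MXD3 0.40 ± 0.20, adjusted p = 0.142; MXD4 0.29 ± 0.12, adjusted p = 0.0536). Both were higher in LM2 than in MDA-MB-231 controls, by 0.73 ± 0.15 (adjusted p = 2.49e-05) and 0.67 ± 0.08 (adjusted p = 1.39e-09).

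MNT, the broadly expressed MAX partner that holds MYC targets down in resting cells, was nearly flat. It was at 10.0 and 9.85 CPM in the MDA-MB-231 controls, 9.27 and 10.8 with the TAF7 hairpin, 9.96 and 13.0 in the LM2 controls and 11.2 and 13.0 in LM2 with the hairpin. The groups overlapped in both knockdown comparisons, and no comparison passed the test, although leaving out LM2 control replicate 2 gave a log2 difference between the control lines of 0.38 (adjusted p = 0.0463) in place of 0.21 ± 0.14 (adjusted p = 0.204).

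MGA, the MAX partner of PRC1.6, was lower in LM2 than in MDA-MB-231 and lower with the hairpin in both lines. It was at 69.5 and 73.2 CPM in the MDA-MB-231 controls, 58.7 and 56.0 with the TAF7 hairpin, 59.4 and 57.2 in the LM2 controls and 52.4 and 44.9 in LM2 with the hairpin. The knockdown change was -0.31 ± 0.08 in MDA-MB-231 (edgeR adjusted p = 0.00181; 0.0503 without control replicate 3) and -0.26 ± 0.08 in LM2 (adjusted p = 0.00647). The fall in LM2 rests on individual libraries: without LM2 shTAF7 replicate 3 it was -0.14 (adjusted p = 0.267), and without LM2 control replicate 2 it was -0.23 (adjusted p = 0.0681). MGA was lower in LM2 than in MDA-MB-231 by 0.29 ± 0.08 with the control hairpin (adjusted p = 0.00107) and by 0.24 ± 0.08 with the TAF7 hairpin (adjusted p = 0.00821), the latter at -0.11 (adjusted p = 0.29) without LM2 shTAF7 replicate 3 and -0.21 (0.0504) without MDA-MB-231 shTAF7 replicate 2.

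Of the 9 members tested, 3 rose, 2 fell and 4 were not called with the knockdown in MDA-MB-231, where 25.6% of all 15923 tested genes were called (12.6% higher, 12.9% lower). In LM2 2 rose, 4 fell and 3 were not called, beside 41.3% of all genes (21.8% higher, 19.4% lower). Between the control lines 5 were higher and 1 was lower in LM2, where 64.4% of all genes were called (32.2% higher, 32.1% lower), so that a share of 66.7% of the members is near the background. With the TAF7 hairpin 4 were higher and 3 lower in LM2, beside 62.5% of all genes (30.9% higher, 31.6% lower). The knockdown effect differed between the lines for 3 members, MYC, MXD1 and MXI1, all toward a lower value in LM2, and for 25.8% of all genes (11.9% toward lower). The calls in MDA-MB-231 are the least firm: without control replicate 3 none of the 5 passed, without control replicate 2 it was 1, without shTAF7 replicate 3 it was 2 and without shTAF7 replicate 2 it was 3. With factors from library totals alone, the median of all genes in the LM2 knockdown lay at -0.14 and the split of called genes was 2085 higher and 4664 lower, in place of 3478 and 3092. None of the members' calls in LM2 was lost or reversed with those factors.

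**Figure D2:**
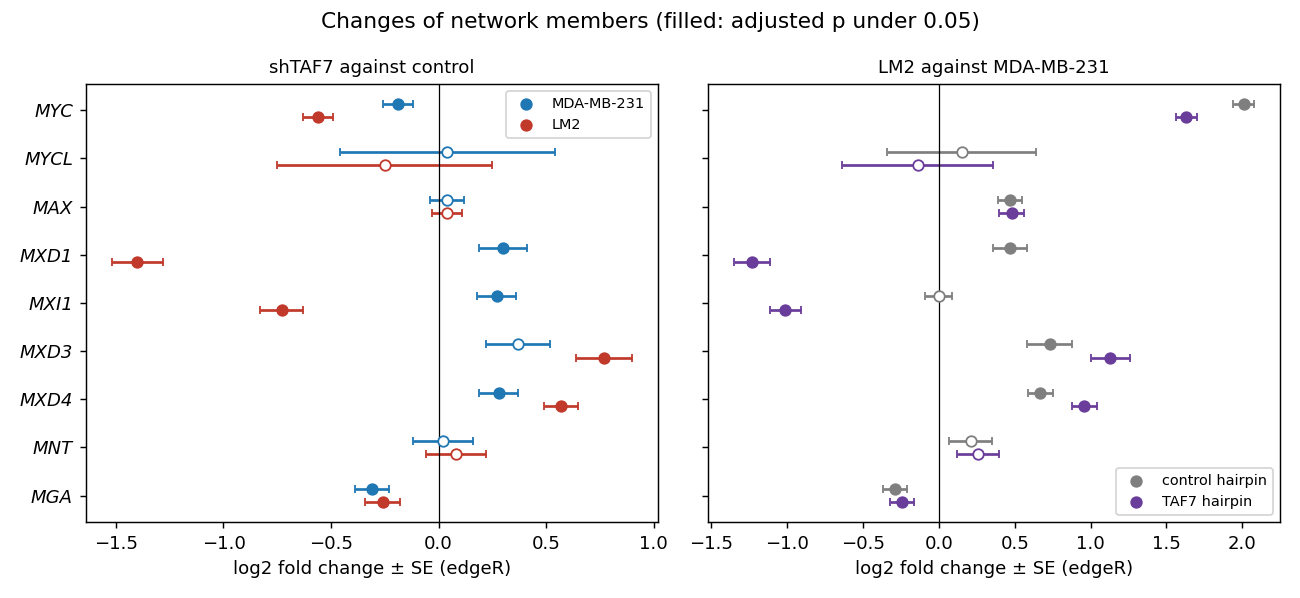
edgeR log2 fold changes of the 9 tested members with their standard errors, left for the TAF7 hairpin against control in each line and right for LM2 against MDA-MB-231 with each hairpin; filled points passed an adjusted p of 0.05. MXD1 and MXI1 sit to the right of 0 in MDA-MB-231 and to the left in LM2, while MYC and MGA sit to the left in both.

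Levels of different genes were compared on the deposited FPKM scale, which is per kilobase of gene. It follows library totals, as judged from the numbers, without the TMM factors. In all 4 groups MYC was highest, then MAX, then MXD4. MXD4 and MXI1 overlapped in both MDA-MB-231 groups, and MNT and MXD1 overlapped in LM2 with the hairpin; every other pair of neighbours in the order was apart in its 2 libraries. In the MDA-MB-231 controls the mean FPKM were 15.9 for MYC, 9.36 for MAX, 5.03 for MXD4, 4.83 for MXI1, 3.69 for MGA, 2.58 for MXD1, 1.4 for MXD3, 1.16 for MNT and 0.14 for MYCL. In the LM2 controls MYC stood at 65.0 ± 0.346 FPKM and MAX at 13.2 ± 1.21 (SD, n = 2). MXD1 went from rank 5 in the LM2 controls, at 3.66 FPKM, to rank 8 with the hairpin, at 1.27, and MXD3 from rank 7 to rank 4.

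The summed FPKM of all detected MAX partners (MYC, MYCL, MXD1, MXD3, MXD4, MXI1, MNT and MGA) was the same in MDA-MB-231 with and without the hairpin, 34.7 ± 0.99 and 34.7 ± 0.0 (SD, n = 2), and larger in LM2, at 88.7 ± 0.354 in the controls and 62.6 ± 1.06 with the hairpin. MYC made up 46.1% and 45.3% of it in the MDA-MB-231 controls and 40.5% and 38.7% with the TAF7 hairpin. In LM2 its share was 73.2% and 73.3% in the controls and 64.9% and 63.4% with the hairpin. The ranges did not overlap: the share of MYC was lower with the hairpin in each line, and in LM2 with the hairpin it was still above that of any MDA-MB-231 library. MYC over the sum of the MXD genes and MNT was 1.07 and 1.05 in the MDA-MB-231 controls, 0.804 and 0.736 with the hairpin, 3.18 and 3.18 in the LM2 controls and 2.1 and 1.92 in LM2 with the hairpin. MYC over MAX went from 1.69 ± 0.0212 to 1.45 ± 0.0424 in MDA-MB-231 and from 4.93 ± 0.481 to 3.23 ± 0.0212 in LM2. With 2 libraries against 2, an exact two-sided permutation test cannot go below p = 0.333, so these sums and ratios are descriptions.

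The sum of the MXD genes and MNT hid the exchange within it. In LM2 it was 20.4 ± 0.0707 FPKM in the controls and 20.0 ± 1.27 with the hairpin (SD, n = 2), a difference smaller than the spread. The TMM factors, used for CPM but not FPKM, were 1.03 and 1.04 in the LM2 controls and 0.96 and 0.93 with the hairpin. CPM therefore puts the hairpin libraries higher against the controls than FPKM does. MAX went from 13.2 to 12.5 in FPKM but from 80.1 to 82.5 in CPM. Whether the sum stays level thus depends on the scale. MXD1 and MXI1 together went from 8.59 ± 0.361 to 3.98 ± 0.0212 FPKM, and MXD3 and MXD4 together from 10.5 ± 0.141 to 14.7 ± 1.13. In MDA-MB-231 both pairs were higher with the hairpin, from 7.42 ± 0.311 to 8.93 ± 0.24 and from 6.42 ± 0.0707 to 7.79 ± 0.601 FPKM. The antagonist transcripts of LM2 with the hairpin were thus mostly MXD4, at 17.6% of the partner sum, with MXD1 at 2.02%.

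**Figure D3:**
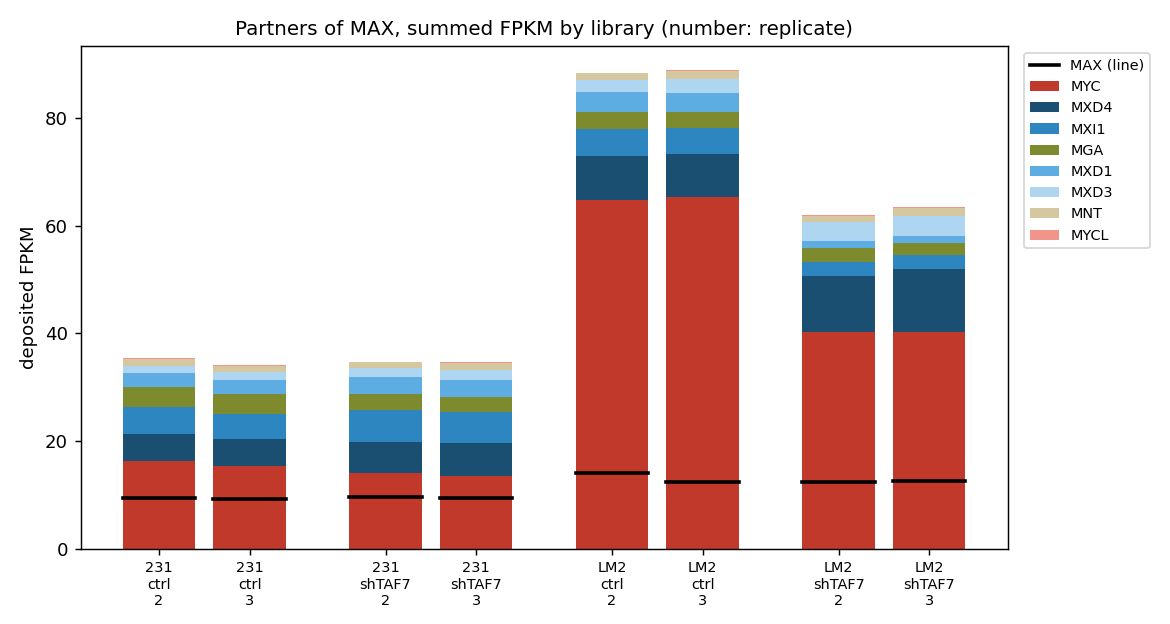
Deposited FPKM of the MAX partners stacked for each of the 8 libraries, with MAX as a black line. MYC (red) makes up 73.2% of the stack in the LM2 controls and 45.7% in the MDA-MB-231 controls as means, and the MXD1 band is narrowest in LM2 with the hairpin.

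Some members share exon bases with a neighbour in GENCODE release 29, and the strand setting of the counting is not given in the sources used here. PRELID1, on the opposite strand, covers 22.47% of the MXD3 exon bases and is more abundant, at 104.0 ± 3.24, 100.4 ± 9.89, 103.3 ± 4.38 and 122.8 ± 17.9 CPM in the MDA-MB-231 controls, the MDA-MB-231 knockdown, the LM2 controls and the LM2 knockdown (SD, n = 2). RAB24, on the same strand as MXD3, was at 1.75, 2.45, 3.13 and 3.39 CPM in that order. How many MXD3 counts come from either gene was not tested, which leaves MXD3 values uncertain. SNRNP27 shares 237 of 6351 exon bases with MXD1 on the same strand and was at 41.8, 50.7, 18.8 and 26.1 CPM. Its mean was higher with the hairpin in both lines, while that of MXD1 was higher in MDA-MB-231 and lower in LM2; how many MXD1 counts come from SNRNP27 was not tested.

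The genes whose profiles over the 8 libraries were most like MYC were sought among 10750 genes with a mean of at least 5 CPM, by the root-mean-square difference of centred log2 CPM. The closest were JDP2 (0.1), BEX2 (0.118), L1CAM (0.12), ZNF141 (0.143) and HOXB9 (0.144). JDP2, which encodes an AP-1 family repressor, stood at 6.41, 5.5, 25.3 and 18.2 CPM as group means in the MDA-MB-231 controls, the MDA-MB-231 knockdown, the LM2 controls and the LM2 knockdown. L1CAM, a cell adhesion molecule, stood at 5.45, 4.72, 23.9 and 14.3 CPM. For MXD3, next to MYC in the range of its group means (1.48 on the log2 scale, against 2.2 for MYC), the closest were BATF3 (0.047), TGFB1I1 (0.085), GLTP (0.089), PAFAH1B3 (0.102) and PLP2 (0.102). BATF3, another AP-1 family gene, stood at 8.63, 11.4, 14.8 and 24.5 CPM.

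MYC mRNA and its locus have known regulators, of which 13 of 14 listed were tested. With the knockdown 0 rose and 5 fell in MDA-MB-231, and 4 rose and 2 fell in LM2 (3 and 4 with library-total scaling). In MDA-MB-231 that was 0.0% and 38.5%, beside 12.6% and 12.9% of all tested genes. In LM2 it was 30.8% and 15.4%, beside 21.8% and 19.4%. The 5 falls became 2 when MDA-MB-231 control replicate 2 was left out, and 3 when control replicate 3 or shTAF7 replicate 3 was. PVT1, the long noncoding RNA gene beside MYC, stood at 17.6 ± 0.833 CPM in the MDA-MB-231 controls, 19.3 ± 0.72 with the hairpin, 34.3 ± 0.101 in the LM2 controls and 26.0 ± 1.12 in LM2 with the hairpin (SD, n = 2). Like MYC it was higher in LM2 (log2 0.96 ± 0.10, edgeR adjusted p = 4.87e-12) and fell with the hairpin there (-0.40 ± 0.09, adjusted p = 0.000592). In MDA-MB-231 it differed by 0.14 ± 0.10 (adjusted p = 0.359). IGF2BP3, an RNA-binding protein of the family that stabilizes MYC mRNA, fell in both lines (-0.88 ± 0.10 and -0.67 ± 0.12; adjusted p = 4.84e-09 and 1.29e-05) and was lower in LM2 (-1.18 ± 0.10). IGF2BP1 had 1 to 3 counts per group and was the gene not tested.

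Of 12 genes for MYC partners and protein turnover, 0 rose and 2 fell with the knockdown in MDA-MB-231, and 5 rose and 2 fell in LM2 (2 and 3 with library-total scaling). The 5 were 2 without LM2 control replicate 2, and 3 without LM2 control replicate 3 (where 0 fell), LM2 shTAF7 replicate 3 or either MDA-MB-231 control. Against the MDA-MB-231 controls, 4 were higher and 4 lower in LM2 (33.3% each), near the 32.2% and 32.1% of all tested genes. With the knockdown in MDA-MB-231, 0.0% of the list rose and 16.7% fell, beside 12.6% and 12.9% of all tested genes. In LM2 it was 41.7% and 16.7% of the list, beside 21.8% and 19.4%. SKP2, a ubiquitin ligase subunit that both activates MYC and marks it for decay, stood at 122.5 ± 4.26, 114.6 ± 2.19, 40.3 ± 3.87 and 61.1 ± 2.63 CPM (SD, n = 2) in the MDA-MB-231 controls, the MDA-MB-231 knockdown, the LM2 controls and the LM2 knockdown. It was lower in LM2 (log2 -1.6 ± 0.08, edgeR adjusted p = 1.52e-23) and rose with the hairpin there by 0.60 ± 0.08 (adjusted p = 3.04e-08). BIN1, a MYC-interacting adaptor, was higher in LM2 by 1.28 ± 0.11 (adjusted p = 6.55e-14).

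Of 14 coactivators that MYC recruits, 3 rose and 5 fell in MDA-MB-231, 7 rose and 2 fell in LM2 (4 and 6 with library-total scaling), and 2 were higher and 8 lower in LM2 between the control lines. Leaving out MDA-MB-231 control replicate 2 gave 0 rising and 2 falling in that line, control replicate 3 gave 0 rising and 3 falling, and shTAF7 replicate 3 gave 1 rising and 3 falling. In LM2 0 fell when either control replicate 3 or shTAF7 replicate 3 was left out. TRRAP, the scaffold of the MYC-bound acetyltransferase complexes, was lower in LM2 by 1.11 ± 0.07 on the log2 scale (edgeR adjusted p = 1.51e-18) and fell with the hairpin in MDA-MB-231 (-0.32 ± 0.07, adjusted p = 0.000432). CDK9, the elongation kinase of P-TEFb, was lower in LM2 by 0.93 ± 0.08 (adjusted p = 9.94e-15), as was WDR5, which anchors MYC to chromatin, by 0.81 ± 0.07 (adjusted p = 2.66e-14). The list median between the control lines was -0.31, beside 0.02 for all tested genes. There 71.4% of the list was called (14.3% higher, 57.1% lower), beside 64.4% of all tested genes (32.2% higher, 32.1% lower). With the knockdown in MDA-MB-231, 21.4% of the list rose and 35.7% fell, beside 12.6% and 12.9% of all tested genes. In LM2 it was 50.0% and 14.3%, beside 21.8% and 19.4%.

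The MXD proteins use a set of corepressors, of which 11 were tested. In the LM2 controls 0 were higher and 6 lower (0.0% and 54.5%, median -0.32), beside 32.2% and 32.1% of all tested genes. The lower genes were led by SIN3A, the scaffold that MXD proteins bind (-1.07 ± 0.07, edgeR adjusted p = 7.75e-18), and RBBP7, a histone-binding subunit (-0.80 ± 0.07, adjusted p = 1.59e-14). With the hairpin 6 rose and 1 fell in LM2 (54.5% and 9.09%, median 0.19), beside 21.8% and 19.4% of all tested genes. Library-total scaling gave 3 and 1, with a median of 0.07. SAP30 was at 0.60 ± 0.11 (edgeR adjusted p = 1.16e-05) and SIN3A at 0.04 ± 0.07 (adjusted p = 0.733). For MDA-MB-231 the shares of the list were 27.3% rising and 18.2% falling, beside 12.6% and 12.9% of all tested genes. In MDA-MB-231 3 rose and 2 fell, but 0 rose without control replicate 3, and 1 rose without control replicate 2 or shTAF7 replicate 3 (0 fell without either) or shTAF7 replicate 2.

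Among 10 subunits of the PRC1.6 complex of MGA, 0 rose and 1 fell in MDA-MB-231, beside 12.6% and 12.9% of all tested genes. In LM2 6 rose and 2 fell (60.0% and 20.0%, median 0.25), beside 21.8% and 19.4% of all tested genes. The LM2 split was 4 and 3 with library-total scaling and 2 and 2 with limma on either FPKM scale. Only 1 fell when any 1 library was left out, except for the MDA-MB-231 knockdown libraries, which left 2. RYBP, a RING1-binding subunit, fell in both lines as MGA did (-0.34 ± 0.07 and -0.56 ± 0.08; edgeR adjusted p = 0.00035 and 6.11e-08). L3MBTL2, the methyl-lysine reader of the complex, rose in LM2 (0.45 ± 0.11, adjusted p = 0.0011; 0.0843 with limma on log2(FPKM + 1)), where TFDP1, the dimer partner of E2F6, also rose (0.46 ± 0.07, adjusted p = 2.84e-07). The parallel network built on MLX has 3 further genes. MLXIPL, a glucose-sensing partner of MLX, was counted 24, 39, 79 and 24 times in the MDA-MB-231 controls, the MDA-MB-231 knockdown, the LM2 controls and the LM2 knockdown. It fell in LM2 by 1.74 ± 0.43 on the log2 scale (adjusted p = 0.000852), on these low counts, and by 1.25 (adjusted p = 0.0823) without LM2 control replicate 2. MLX, the dimer partner itself, was lower in LM2 (-0.66 ± 0.08, adjusted p = 1.81e-10), and MLXIP, the other sensor, rose with the hairpin in LM2 (0.30 ± 0.07, adjusted p = 0.000705; 0.17 and 0.052 with library-total scaling).

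A list of 40 genes described as activated by MYC (nucleolar, nucleotide, polyamine and mitochondrial genes) had a median change of the opposite sign to that of MYC in LM2 and between the control lines. In LM2, where MYC fell with the hairpin, 23 of the 40 rose, 2 fell and 15 were not called, with a median of 0.30 beside -0.02 for all tested genes; 21.8% of all genes rose there and 19.4% fell. The 4 called genes with the largest changes were PA2G4, a growth-regulated nucleolar protein (0.76 ± 0.07, edgeR adjusted p = 1.16e-12), MTHFD2, a mitochondrial folate enzyme (-0.62 ± 0.07, adjusted p = 3.54e-09), APEX1, a DNA repair endonuclease (0.57 ± 0.07, adjusted p = 2.86e-09), and BOP1, a ribosome assembly factor (0.56 ± 0.07, adjusted p = 7.21e-09). Library-total scaling left 17 higher and 4 lower, and over all 17 alternatives 17 to 24 were higher and 1 to 4 lower, with medians of 0.10 to 0.33. PA2G4 stood at 197.4 ± 1.93 CPM in the LM2 controls and 334.7 ± 24.7 with the hairpin (SD, n = 2).

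In MDA-MB-231, where MYC fell slightly, 5 of these 40 rose, 13 fell and 22 were not called (median -0.08). That was 12.5% rising and 32.5% falling, beside 12.6% and 12.9% of all tested genes. Leaving out control replicate 2 gave 1 rising and 8 falling, and control replicate 3 gave 2 rising and 9 falling. For shTAF7 replicate 2 the split was 2 rising and 12 falling, and for shTAF7 replicate 3 it was 5 rising and 8 falling. TFRC, the transferrin receptor, fell most (-0.81 ± 0.08, edgeR adjusted p = 2.32e-10), followed by DDX21, a nucleolar helicase (-0.72 ± 0.08, adjusted p = 5.78e-10), and PRMT5, an arginine methyltransferase (-0.61 ± 0.10, adjusted p = 4.34e-06). HSPE1, the mitochondrial co-chaperone, rose (0.65 ± 0.13, adjusted p = 0.000127; 0.42 and 0.0583 without control replicate 2), while HSPD1, its partner chaperone across the shared site printed above, fell (-0.54 ± 0.07, adjusted p = 1.3e-07). HSPE1 was at 12.8 CPM in the MDA-MB-231 controls and 20.0 with the hairpin, far below HSPD1 at 1435.7 and 987.2. Exon overlaps were looked up for the network members alone. Whether HSPE1 shares exon bases with another gene was not tested, which leaves its values and the contrast with HSPD1 uncertain. The knockdown effect differed between the lines for 26 of the 40, 24 of them toward a higher value in LM2 and 2 toward a lower one (median of the difference 0.39), beside 13.9% and 11.9% of all genes.

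Between the control lines, LM2 with its 4.02-fold higher MYC had 8 of the 40 higher, 24 lower and 8 not called (median -0.30, beside 0.02 for all genes). That was 20.0% higher and 60.0% lower, beside 32.2% and 32.1% of all tested genes. HSPD1 was at 1435.7 ± 12.5 CPM in the MDA-MB-231 controls and 448.3 ± 28.2 in the LM2 controls (SD, n = 2; log2 -1.68 ± 0.07, edgeR adjusted p = 4.12e-25). POLR1B, the second subunit of RNA polymerase I, was lower by 1.31 ± 0.07 (adjusted p = 7.55e-21). TERT was lower by 3.37 ± 0.27 (edgeR adjusted p = 3.51e-15). It was at 7.54 CPM in the MDA-MB-231 controls and 0.72 in the LM2 controls, on 279 and 26 counts. NPM1, the nucleolar histone chaperone, was among the 8 higher (0.67 ± 0.08, adjusted p = 9.16e-10). CCND2, a cyclin that is a direct MYC target, had no count (0) in the MDA-MB-231 controls and 282 counts in the LM2 controls, at least 46.5-fold higher against a limit of 3 counts per library. With the TAF7 hairpin in both lines the split was 20 higher and 15 lower in LM2, with a median of 0.15, or 17 and 17 with library-total scaling. The 20 and 15 were 50.0% and 37.5% of the list, beside 30.9% and 31.6% of all tested genes.

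Listed genes with and without the E-box had near-equal medians. With the hairpin in LM2 the 15 listed genes with CACGTG in their window had a median of 0.35 (8 higher, 1 lower) and the 17 with a window but no CACGTG 0.34 (11 higher, 1 lower). For the control lines the medians were -0.31 and -0.30. Over all 1361 tested genes with the E-box the median with the hairpin in LM2 was 0.01, with 26.2% higher and 20.0% lower, beside 24.5% and 20.3% of 9830 genes without it. No test of these differences was made.

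A second list, of 12 genes described as repressed by MYC, had 10 tested, since CDKN2B had 0 counts and NDRG2 at most 4 per group. In the control lines 7 were higher in LM2 and 2 lower (median 0.58), and with the hairpin in LM2 1 rose and 8 fell (median -0.69; 0 and 8 with library-total scaling). Over all tested genes 32.2% were higher and 32.1% lower between the control lines. With the hairpin 21.8% of all genes rose and 19.4% fell in LM2, and 12.6% and 12.9% in MDA-MB-231. The knockdown effect differed between the lines for 25.8% of all genes (11.9% toward lower). Between the control lines the 2 lower genes were THBS1 and CEBPA, and the 1 that rose with the hairpin in LM2 was NDRG1 (0.28 ± 0.08, edgeR adjusted p = 0.00385). GADD45A, a stress-induced brake on the cell cycle, stood at 37.3 ± 1.12 CPM in the MDA-MB-231 controls, 49.4 ± 2.84 with the hairpin, 245.9 ± 13.5 in the LM2 controls and 102.5 ± 6.21 in LM2 with the hairpin (SD, n = 2). It was higher in LM2 by 2.72 ± 0.08 on the log2 scale (edgeR adjusted p = 7.46e-33), fell there with the hairpin (-1.26 ± 0.07, adjusted p = 6.82e-20) and rose in MDA-MB-231 (0.41 ± 0.08, adjusted p = 0.000148). CDKN1A, the p21 inhibitor of cyclin-dependent kinases, was higher in LM2 by 1.18 ± 0.08 (adjusted p = 2.1e-17) and fell there by 0.70 ± 0.08 (adjusted p = 8.63e-10), but differed by -0.03 ± 0.09 in MDA-MB-231 (adjusted p = 0.848). FTH1, the ferritin heavy chain, fell in LM2 by 0.91 ± 0.08 (adjusted p = 2.78e-12). THBS1, an inhibitor of angiogenesis, went another way: it fell in MDA-MB-231 (-1.05 ± 0.07, adjusted p = 7.69e-16) and was at 186.6 ± 0.91 and 187.0 ± 2.24 CPM in LM2 without and with the hairpin. In MDA-MB-231 4 of the 10 rose and 1 fell (2 without shTAF7 replicate 2 or either LM2 shTAF7 library), and the knockdown effect differed between the lines for 7, of which 6 toward a lower value in LM2.

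**Figure D4:**
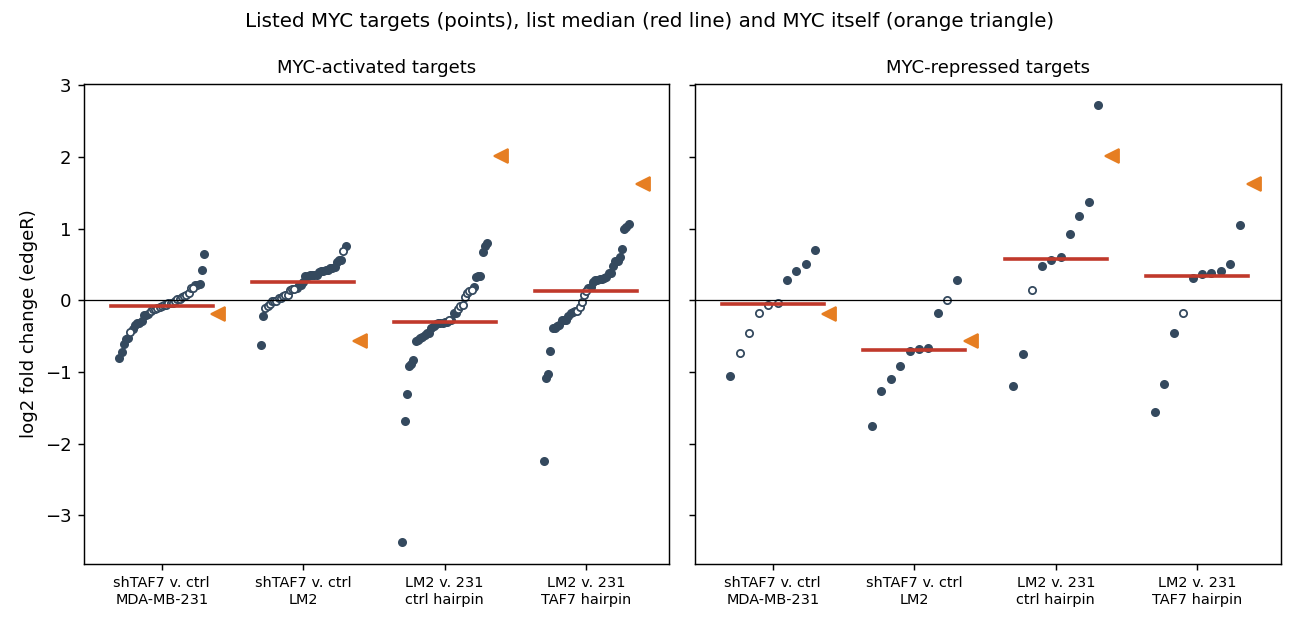
edgeR log2 fold changes of 39 listed MYC-activated genes (left; CCND2, with 0 or 1 counts in the MDA-MB-231 groups, is not plotted) and 10 listed MYC-repressed genes (right) in 4 comparisons; points are genes in order of value, filled where called, the red line is the median of those plotted and the orange triangle is MYC. In LM2 with the hairpin the plotted medians are 0.25 and -0.69 while MYC is at -0.56, and between the control lines they are -0.30 and 0.58 while MYC is at 2.01.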

How the data were processed

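RNA from 8 libraries of 2 cell lines was enriched for mRNA, per the labels' protocols. The authors deposited whole-number read counts per gene, not normalized, and FPKM values, which follow gene length and library totals, as judged from the numbers. STAR 2.7.10a and hg19 are named, without a step, per the submitters' processing notes; counting program, strand setting and annotation: not given in the sources used here. Groups were taken from the sample titles.

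All 61552 genes entered one table, of which edgeR's filterByExpr kept 15923. With edgeR 4.0.16 in R 4.3.3, a quasi-likelihood fit with TMM factors used 1 mean per group over all 8 libraries (4 residual degrees of freedom). A call needed a Benjamini-Hochberg adjusted p under 0.05 over all tested genes. It was tested on simulated data with 50 genes changed at each fold size, far fewer than were called in the real data. At 1.5-fold, 80% were recovered in the MDA-MB-231 knockdown comparison (15378 genes), 86% in that of LM2 (15413 genes) and 62% in the interaction (15382 genes). At 1.25-fold, near the size of the member changes in MDA-MB-231, it was 40%, 48% and 20% in that order. Alternatives were upper quartile, RLE and library-total factors, no filter, a replicate block, DESeq2 1.42.0, limma 3.58.1 on log2(FPKM + 1) and log2(FPKM + 0.1), the compared libraries alone, and leaving out each library. The lowest and highest depth are given in the report; limits from 3 counts cover counting error alone. Exon overlaps come from GENCODE release 29 (GRCh38) and were looked up for the network members alone. Likeness used log2(CPM + 0.1).

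All 10 members are named. Of each list up to 4 called genes with the largest absolute change per comparison are named (TERT between the control lines alone), with others where needed to say what did not move. Values outside that rule (such as HSPD1 in MDA-MB-231, NPM1, CDKN1A in LM2 and the genes with opposite calls in the closing section) were chosen after they were seen. The members and the 8 gene lists were chosen with earlier results of these data known, so no list gives independent support.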

Additional observations from a re-analysis of the deposited data

Results flagged for a closer look

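The effect of the TAF7 hairpin differed between the lines, by the edgeR interaction test, for 3 members and for 9 listed genes whose calls in the 2 lines had opposite signs. The 9 were 4 of 40 tested MYC-activated, 3 of 10 MYC-repressed, 1 of 12 partner and turnover and 1 of 13 regulator genes. Each other list had 0. Over all tested genes the interaction was called for 25.8%. How many of all tested genes had opposite calls in the 2 lines was not counted. On the log2 scale, as the LM2 effect minus the MDA-MB-231 effect, the difference was -0.37 for MYC, which fell in both lines, and -1.7 for MXD1 and -1.01 for MXI1, which rose in MDA-MB-231 and fell in LM2. It was -0.96 for BTG1, an antiproliferative gene, -1.38 for CDKN1C, a cell cycle inhibitor, and -1.67 for GADD45A, each of which also rose in MDA-MB-231 and fell in LM2. It was 0.65 for CAD, the pyrimidine synthesis enzyme, 0.67 for CDC25A, a cell cycle phosphatase, 0.55 for MYBBP1A and 0.56 for NOLC1, both nucleolar, and 0.59 for both PLK1, a mitotic kinase, and CIP2A, which protects MYC from dephosphorylation. These 6 fell in MDA-MB-231 and rose in LM2.

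These 9 listed genes were picked for opposite calls in the 2 lines, which makes their interactions large by selection. That the interactions passed under all alternatives tried, on the same 8 libraries, is therefore no separate support. Their single-line calls did not all pass. With library-total scaling the rises in LM2 of CAD (adjusted p = 0.168), CIP2A (0.309) and NOLC1 (0.232) were not called. Without MDA-MB-231 control replicate 2 the calls in that line of BTG1 (0.111), MYBBP1A (0.172) and PLK1 (0.208) were lost, as were those of CDC25A (0.0658) and CDKN1C (0.0742) without control replicate 3.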

How the results depend on the processing

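Over 17 alternatives (16 for the interaction), 712 of 756 member values stayed on their side of the threshold, 38 lost their call, 6 gained one, and no called value reversed. For TAF7 and the listed genes named, 3263 values stayed, 146 lost their call, 34 gained one and no called value reversed. The members called higher with the knockdown in MDA-MB-231 went from 3 to 4 with upper quartile factors (MXD3, adjusted p = 0.0472), 1 with no filter, 1 with DESeq2 and 0 with limma on either FPKM scale, and those called lower from 2 to 1 with upper quartile factors, no filter or either FPKM scale. Members called lower between the control lines went from 1 to 0 on either FPKM scale, and members with a higher interaction from 0 to 1 with RLE factors (MXD4, adjusted p = 0.0425). Leaving out 1 library gave 0 to 3 members higher and 0 to 2 lower in MDA-MB-231, 0 to 1 higher for the interaction, and 2031 to 4408 genes called in MDA-MB-231 (4070 with all; lowest without MDA-MB-231 control replicate 2, then 2279 without control replicate 3 and 2362 without shTAF7 replicate 3). MXD4's interaction passed without LM2 shTAF7 replicate 2 (adjusted p = 0.00701) and without MDA-MB-231 shTAF7 replicate 3 (adjusted p = 0.0367). The cause was not tested. Interaction calls went 54.0% toward higher, 32.7% with library totals and 42.0% with upper quartile factors. Where 1 library was left to a group, it was assumed to vary as the other groups do.

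The replicate numbers did not pair the libraries: deviations of same-numbered libraries correlated at -0.0618 to 0.0214. With the number as a replicate block, 1 member in place of 2 was lower in MDA-MB-231 (MYC, -0.19, adjusted p = 0.0596) and 1 in place of 0 had a higher interaction (MXD4, adjusted p = 0.0495), while the genes called in LM2 went from 6570 to 6554. Of the members, depth limits MYCL and MYCN most.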
